A study of Mus musculus with 54 samples.

Results

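The genes followed here were 7 members of the NF-kB pathway. They comprised 4 genes that restrain or tune it (Nfkbia, Nfkbid, Nfkbiz and Tnfaip3) and 3 that encode subunits of the transcription factor itself (Nfkb1, Rel and Relb). They were chosen by name for their known roles, with earlier results of these data known. They made up 7 of the 33126 genes listed in the deposited tables. A further 82 genes of the pathway, grouped as other subunits, other inhibitors, kinases and adaptors, receptors, ligands and targets, were counted beside them. The levels of the 7 genes were compared across bulk RNA-seq and 10x protocols, and in immune cells against tubule and endothelial cells.

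NF-kB dimers are held in the cytoplasm by inhibitory IkB proteins until a signal from a receptor for TNF, interleukin 1 or a microbial product leads a kinase complex to mark the inhibitor for destruction. The freed dimers then enter the nucleus and switch on target genes, among which are the genes of their own inhibitors. In the kidney the pathway is best known from macrophages and lymphocytes, and tubule and endothelial cells use it too when they are injured.

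The study compared ways to prepare mouse kidney for single-cell work, with 3 mice in each condition. Male AFAPIL.1DEL C57BL/6J littermates of 19 weeks, with no other treatment, gave suspensions made with an enzyme kit at 37 °C (warm) or with a cold-active protease on ice (cold). These suspensions were run fresh on the 10x platform, after 6 weeks of cryopreservation in a medium with DMSO, or after 3 months in methanol, and the fresh suspensions also gave bulk libraries. Cold suspensions of untreated male Balb/c mice of 18 weeks and female Balb/c mice of 15 weeks were set beside nuclei sorted from flash-frozen kidney. From the female mice, cold suspensions cryopreserved for 2 weeks, nuclei from 2 further isolation protocols, and bulk libraries of intact kidney and of cold suspensions were also made. Male Balb/c intact kidney was sequenced in bulk as well. The counts of nuclei included reads in introns, those of cells did not.

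The 54 libraries fell into 18 groups of 3. The bulk totals were 5969212 to 8184923 counts in C57BL/6J, 21984996 to 31093949 in Balb/c female and 2326998 to 7879117 in Balb/c male mice, and the 10x totals were 983522 to 35170947 UMIs. The 175959 barcodes of the 39 10x libraries fell into 172 clusters, of which 16 stayed unnamed and held 10.1% of barcodes. The named clusters were joined into an immune, a tubule and an endothelial compartment, and the UMIs of each library were summed within a compartment, so that libraries and not cells were the replicates. A pair of libraries shared at most 101 barcodes, and the share of the smaller library's barcodes was at most 1.78%, in another pair. In fresh C57BL/6J cells the summed level of 60 immune markers was 11075 to 15877 CPM (counts scaled to a common library total) in the immune compartment and 84.2 to 118 CPM in the tubule compartment, and that of 60 tubule markers was 23943 to 38684 CPM in tubule cells. Immune clusters were absent from the Balb/c male nuclei, and those of the Balb/c female nuclei held macrophage-like nuclei only.

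Zeros need care in the 10x tables, since by the methods genes found in at least 10 cells were kept. Outside the Balb/c female cryopreserved libraries, the tables held 6 to 852 genes per library with a UMI in 1 to 9 barcodes and 289 to 6658 genes at 0. The tables of those cryopreserved libraries held no gene at 0 and left out the unlisted ones. Nfkbid was listed at 0 in 9 libraries, Rel in 5, Tnfaip3 in 4, Relb in 2 and Nfkb1 in 1, and most of these were methanol-fixed or Balb/c male cell libraries. Such a gene is described here as listed at 0, and no fold change is given against a group in which every library was listed at 0.

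On the GRCm38 assembly Nfkbia lies on the minus strand at chr12:55489410-55492647, Nfkbid on the plus strand at chr7:30421732-30428746, Nfkbiz on the minus strand at chr16:55811375-55838899 and Tnfaip3 on the minus strand at chr10:19000910-19015657. The subunit genes all lie on the minus strand, Nfkb1 at chr3:135584655-135691547, Rel at chr11:23736847-23770970 and Relb at chr7:19606217-19629438. RefSeq promoter sequences (GRCm38.p6) matched 4 of the 7 genes. For those with an entry, Nfkbia, Nfkbid, Tnfaip3 and Rel, the 250 bases before each of the start sites were searched on both strands for the kappa-B consensus, the sequence that NF-kB dimers bind. Of the 7 promoters listed for these genes 4 held 1 or more matches and 3 held 2 matches. Over all 32851 promoters 7.25% held 1 or more and 1.03% held 2 or more. A match is a description of these letters and not a bound site. The Nfkbia sequence (chr12:55492648-55492897, minus strand) is shown whole, with its match, 29 to 20 bases before the start, in capitals. For Nfkbid (start 2 of the 3 listed, plus strand), Tnfaip3 and Rel (both minus strand), 30 bases around each match are shown, and the 2 matches of Rel overlap. All are written 5′ to 3′.
Nfkbia: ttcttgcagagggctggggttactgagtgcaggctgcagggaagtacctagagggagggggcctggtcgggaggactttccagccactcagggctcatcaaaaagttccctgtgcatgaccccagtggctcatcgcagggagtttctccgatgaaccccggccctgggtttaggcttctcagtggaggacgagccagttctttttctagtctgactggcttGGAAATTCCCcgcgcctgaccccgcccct
Nfkbid chr7:30422170-30422199: gccccgccctGGGACTTCCCagagcaccac
Nfkbid chr7:30422215-30422244: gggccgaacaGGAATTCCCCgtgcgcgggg
Tnfaip3 chr10:19015516-19015545: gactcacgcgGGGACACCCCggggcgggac
Tnfaip3 chr10:19015411-19015440: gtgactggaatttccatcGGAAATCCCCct
Rel chr11:23771042-23771071: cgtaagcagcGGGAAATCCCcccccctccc
Rel chr11:23771041-23771070: gtaagcagcgGGAAATCCCCccccctcccc
Starts 1 and 3 of Nfkbid and start 2 of Tnfaip3, in the order of the table, held no match. Nfkbiz, Nfkb1 and Relb had no promoter entry.

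Whole suspensions were compared first, to see how the pathway differed between warm and cold dissociation in the mixture of kidney cells. By the methods, these protocols differed in enzymes, mechanical steps, spins and wash buffers as well as in temperature. The part of temperature alone was not tested, here or in the comparisons of warm with cold below. In bulk RNA-seq of C57BL/6J suspensions, all 4 inhibitors and Rel were higher after warm than after cold dissociation, while Nfkb1 and Relb did not pass the test. Of all 14102 genes tested, 8.68% were called at an adjusted p under 0.05 (edgeR quasi-likelihood test, Benjamini-Hochberg adjustment over all genes, as in every test below), against 5 of the 7 members. Values are CPM on library sizes scaled by TMM (scaled CPM), given for the 3 mice of each group, and log2 fold changes carry their standard error. They compare a gene between groups and not genes with each other.

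Nfkbia, which encodes the classical cytoplasmic inhibitor IkB alpha, stood at 52.5, 47.4 and 52.9 scaled CPM in warm and at 17.4, 16.7 and 15.0 in cold suspensions. All warm samples lay above all cold samples, and the means differed 3.10-fold (log2 fold change 1.63 ± 0.10, adjusted p = 4.78e-07). Nfkbid, whose product IkB NS acts on dimers in the nucleus, stood at 12.2, 10.7 and 11.6 against 1.94, 2.54 and 2.64 scaled CPM, again with no overlap (log2 fold change 2.30 ± 0.20, adjusted p = 2.07e-05). Nfkbiz encodes IkB zeta, a nuclear relative that is needed for a subset of late targets. It rose from 16.9, 21.97 and 17.6 in cold to 100.1, 94.7 and 109 scaled CPM in warm samples (log2 fold change 2.43 ± 0.10, adjusted p = 1.94e-08). Tnfaip3, the gene of the ubiquitin-editing enzyme A20 that shuts off signalling from the TNF receptor, showed the largest fitted difference of the 7, with 80.0, 56.7 and 68.4 scaled CPM in warm and 12.7, 12.2 and 11.2 in cold samples (5.66-fold, log2 fold change 2.50 ± 0.13, adjusted p = 1.81e-07).

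Among the subunits, Rel, the c-Rel gene best known from lymphocytes, rose by less. It stood at 22.6, 18.2 and 17.4 scaled CPM in warm and 9.31, 11.8 and 10.7 in cold samples, without overlap (1.85-fold, log2 fold change 0.88 ± 0.15, adjusted p = 0.00285). Nfkb1, the precursor of the DNA-binding subunit of the classical dimer, had overlapping values of 58.1, 58.3 and 50.5 against 50.8, 46.1 and 48.7 scaled CPM (log2 fold change 0.19 ± 0.09, adjusted p = 0.203). Relb, the subunit of the slower non-canonical arm, stood at 6.40, 4.92 and 5.07 against 4.48, 4.56 and 3.30 scaled CPM. Its groups did not overlap, and the difference did not pass the test (log2 fold change 0.40 ± 0.22, adjusted p = 0.316). Leaving out any 1 of the 6 libraries left the same number of calls, 5.

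**Figure D1:**
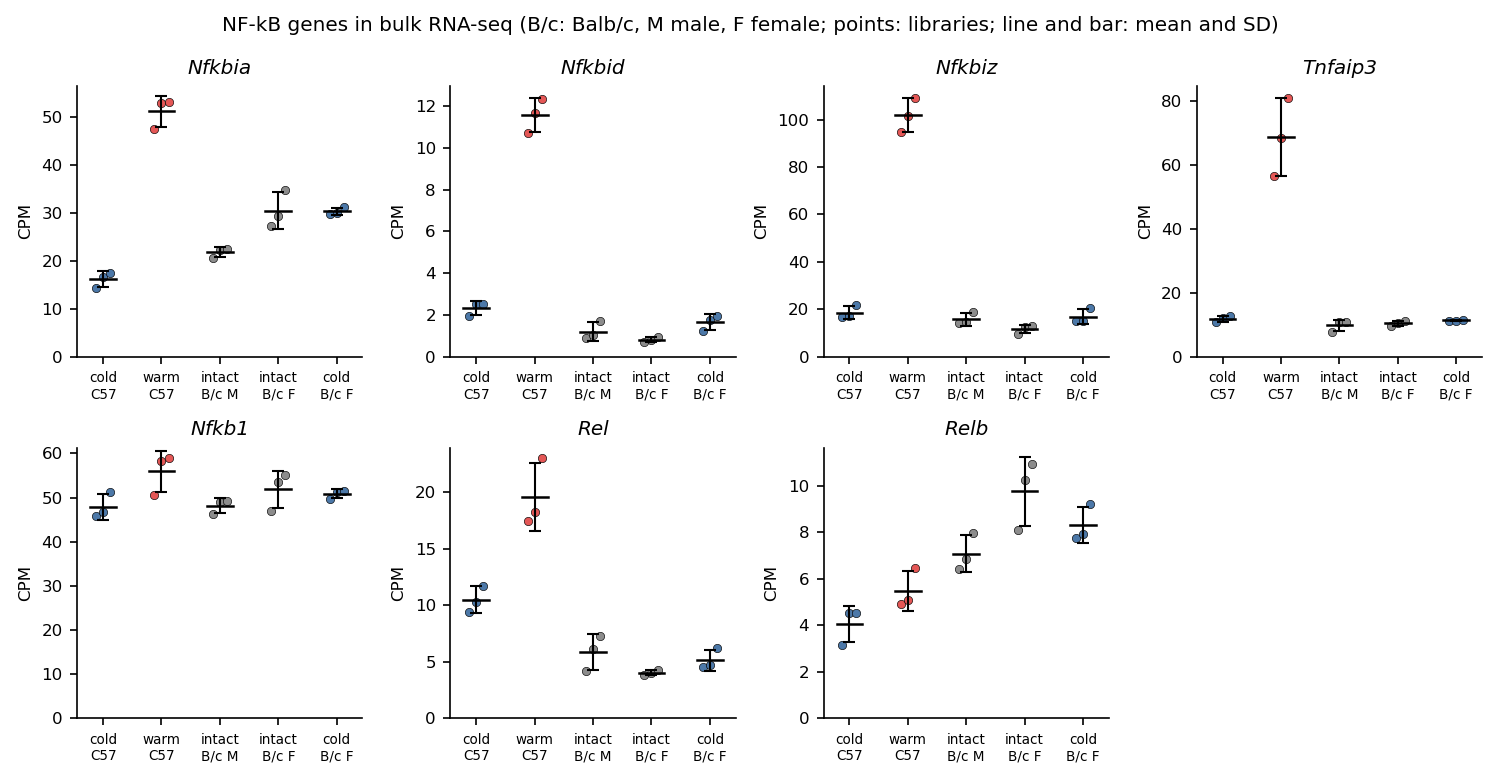
Levels of the 7 genes in all 15 bulk libraries as CPM on a linear axis from 0, one panel per gene, with a point per library and the mean and SD of each group of 3; cold suspensions are blue, warm red and intact kidney grey. The warm C57BL/6J suspensions stand above every other group for Nfkbia, Nfkbid, Nfkbiz, Tnfaip3 and Rel, while the cold suspensions and intact kidneys lie close together for Tnfaip3 and Nfkb1; groups of different strains were prepared by different methods.

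The rest of the pathway was counted in the same bulk comparison, where 8.68% of all genes were called. Of the 82 further genes 73 were tested, 13 were higher and 3 lower in warm suspensions, and their median log2 fold change was 0.04 against -0.01 over all genes tested. Most of the calls were targets. Cxcl2 (5.72 ± 0.63), Cxcl1 (4.46 ± 0.48) and Ccl4 (4.09 ± 0.45), which encode chemokines, led the 8 of 19 tested targets that rose. The ligand genes Tnf (2.41 ± 0.42) and Il1b (1.97 ± 0.24) rose, and Ltb, the lymphotoxin beta gene of lymphocytes, fell by 1.49 ± 0.29 on the log2 scale. Single genes of the other roles were called, with Nfkb2 (0.40 ± 0.10) among the other subunits, Tnip3 (1.19 ± 0.29) among the other inhibitors and the receptor gene Il1r1 (0.76 ± 0.16) higher. The receptor gene Tnfrsf1b fell by 0.52 ± 0.12 on the log2 scale.

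In bulk samples fewer cells of a type and less RNA per cell cannot be told apart. The summed level of 60 immune markers was 551 to 645 CPM in the warm and 703 to 773 CPM in the cold suspensions. The part of cell make-up in the bulk differences was not tested.

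Intact kidney was compared with cold suspensions in Balb/c female mice. By the methods the intact kidneys were flash-frozen, and the suspensions were strained, spun and washed. The part of cold dissociation alone was not tested. Of all genes tested 20% were called, and of the members Nfkbid and Nfkbiz were lower in intact kidney. Nfkbid stood at 0.727, 0.803 and 0.951 scaled CPM in intact kidney and 1.95, 1.20 and 1.78 in cold suspensions (log2 fold change -0.98 ± 0.25, adjusted p = 0.0205), and Nfkbiz at 10.1, 12.7 and 12.6 against 15.2, 14.8 and 20.5 (log2 fold change -0.51 ± 0.14, adjusted p = 0.0335). The groups did not overlap for either gene, but both calls were fragile. The Nfkbid call was lost without intact library 1 or 2 or cold library 1 or 3 (log2 fold changes -0.84 to -0.96), and the Nfkbiz call without intact library 1 or 2 or cold library 3 (-0.35 to -0.57).

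The other 5 members did not pass the test in that comparison. Nfkbia had a log2 fold change of 0.02 ± 0.08 and Tnfaip3 of -0.11 ± 0.09, and those of Nfkb1, Rel and Relb were 0.04 ± 0.06, -0.33 ± 0.15 and 0.24 ± 0.13. Immune markers summed to 583 to 660 CPM in the intact kidneys and 317 to 383 CPM in the cold suspensions, and their part in these differences was not tested. Of 71 further pathway genes tested, 3 were higher and 7 lower in intact kidney, among the latter Il1b (-1.45 ± 0.29) and Ltb (-0.93 ± 0.19). In Balb/c male intact kidney, which was not compared in a test, the plain CPM values were 21.8 ± 1.01 (SD, n = 3) for Nfkbia, 1.21 ± 0.446 for Nfkbid, 15.9 ± 2.72 for Nfkbiz and 9.89 ± 1.75 for Tnfaip3.

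The 10x libraries show in which cells the genes lie. In fresh cold C57BL/6J cells (1429 immune, 8133 tubule and 842 endothelial), the levels of the members differed between the compartments. Mean levels are given as plain CPM ± SD over 3 libraries, and the compartments of a library were compared with the library as a block. Of all genes tested 67.9% differed between immune and tubule cells and 37.9% between immune and endothelial cells, so a call here is no rarity. Rel and Relb had 3 to 11 UMIs in a tubule library, and Rel and Nfkbiz 1 to 7 in an endothelial one. They passed the filter on low counts through their immune counts, so these differences are given as values, with no test.

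Nfkbia was highest in endothelial cells, at 304 ± 28.1 CPM, followed by immune cells at 132 ± 26.1 and tubule cells at 19.4 ± 0.693, and both steps from the immune level were called (immune minus tubule log2 fold change 2.58 ± 0.17, adjusted p = 1.46e-13; immune minus endothelial log2 fold change -0.80 ± 0.16, adjusted p = 0.000212). Nfkbiz stood at 18.3 ± 4.06 CPM in immune cells, above tubule cells at 3.82 ± 0.669 (2.05 ± 0.36) and endothelial cells at 5.01 ± 2.86 (2.22 ± 0.58). The last 2 lie within each other's spread. Nfkbid and Tnfaip3 were too low in the cold cells to be tested between compartments. In immune cells they stood at 10.8 ± 9.49 and 7.63 ± 1.71 CPM, in tubule cells at 0.112 ± 0.194 and 1.05 ± 0.415, and in endothelial cells at 1.35 ± 1.17 and 6.44 ± 1.69.

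The subunits were ordered differently. Rel stood at 44.3 ± 1.90 CPM in immune, 9.36 ± 4.80 in endothelial and 1.11 ± 0.523 in tubule cells, with a fitted immune minus tubule difference of 5.13 ± 0.34 on the log2 scale. Nfkb1 followed the same order, with 64.4 ± 8.84, 31.4 ± 18.9 and 6.33 ± 1.57 CPM. Relb was as high in endothelial cells, at 25.7 ± 13.3 CPM, as in immune cells, at 27.4 ± 9.98, within the spread (immune minus endothelial log2 fold change 0.58 ± 0.37, adjusted p = 0.235), and both lay above the 1.53 ± 0.550 CPM of tubule cells.

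The Balb/c mice, prepared and sequenced separately, gave a like order. In female mice 70.7% of genes differed between immune and tubule and 42.7% between immune and endothelial cells. Members were again higher in immune than in tubule cells, Nfkb1 by 3.19 ± 0.14, Nfkbiz by 3.11 ± 0.23 and Nfkbia by 2.17 ± 0.13 on the log2 scale. The fitted values were 4.78 ± 0.26 for Rel and 3.28 ± 0.25 for Relb. Rel and Relb passed the filter on low counts through their counts outside tubule cells. Their differences from tubule cells are therefore given as values only and not used as evidence. Nfkbia was again higher in endothelial than in immune cells (234 ± 12.6 against 111 ± 9.64 CPM, log2 fold change -0.70 ± 0.13, adjusted p = 0.000126), and for Relb no difference was seen (log2 fold change -0.01 ± 0.24, adjusted p = 0.989). In male mice, where Nfkbia and Nfkb1 were the members tested, the shares called were 62% and 27.1% of genes. Both members were higher in immune than tubule cells (2.61 ± 0.27 and 2.87 ± 0.44), and neither difference from endothelial cells was called by edgeR or DESeq2 (-0.19 ± 0.28 and 1.03 ± 0.54, 0 of them at an unadjusted p under 0.05).

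After warm dissociation all 4 inhibitors and Rel were higher in immune cells. In the fresh immune cells of C57BL/6J mice (964 warm and 1429 cold cells), 5 of the 7 members were higher after warm dissociation, against 3.24% of all genes tested. Tnfaip3 changed most, from 8.19, 6.14 and 9.41 scaled CPM in the cold to 117, 96.4 and 134 in the warm libraries (14.2-fold, log2 fold change 3.82 ± 0.29, adjusted p = 1.41e-05). Every warm library lay above every cold library by about an order of magnitude. Tnfaip3 had 4, 5 and 7 UMIs in the cold libraries and passed the filter on low counts through its warm counts. Its call is therefore not used as evidence beyond these values. Nfkbia stood at 751, 570.1 and 545 scaled CPM in warm and 125, 167 and 118 in cold immune cells (4.52-fold, log2 fold change 2.18 ± 0.20, adjusted p = 6.78e-05), and Nfkbiz at 199, 166 and 149.7 against 18.4, 14.7 and 24.2 (8.87-fold, log2 fold change 3.15 ± 0.24, adjusted p = 1.76e-05). No library of one group reached the other for either gene.

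Nfkbid rose as well, with 108, 74.5 and 123 scaled CPM in warm immune cells against 0, 16.0 and 20.2 in cold ones, where it was listed at 0 in cold library 1 (log2 fold change 2.87 ± 0.47, adjusted p = 0.00494). Rel stood at 219, 138 and 179 against 41.0, 45.4 and 52.4 scaled CPM, again apart (3.75-fold, log2 fold change 1.91 ± 0.23, adjusted p = 0.000467). Nfkb1 (52.5 to 82.5 warm and 59.4 to 78.6 cold) and Relb (21.97 to 58.8 and 19.6 to 34.8) overlapped between the groups, with log2 fold changes of -0.02 ± 0.23 and 0.38 ± 0.39. The immune compartment was not made up alike, since macrophage-like cells were 58.1 to 63.3% of it after warm and 38.3 to 54.02% after cold dissociation. Tubule markers summed to 3824 to 8507 CPM in warm and 2869 to 4995 CPM in cold immune cells. The part of either in the compartment's differences was not tested, but single cell types are given below.

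In tubule cells (9078 warm and 8133 cold), 6.45% of genes were called, and of the 3 members tested Nfkbiz was. It stood at 8.93, 13.8 and 8.42 scaled CPM in warm and 3.60, 4.75 and 3.44 in cold tubule cells, with no overlap (log2 fold change 1.43 ± 0.26, adjusted p = 0.0165). The call was lost without cold library 2 (1.60, adjusted p = 0.0668) or cold library 3 (1.34, adjusted p = 0.0653). Nfkbia stood at 31.6, 34.4 and 23.1 against 18.2, 20.2 and 21.4 scaled CPM, apart but just outside the threshold (log2 fold change 0.58 ± 0.16, adjusted p = 0.0582), and passed it when the cells were clustered at the lower resolution (0.82, adjusted p = 0.0127). Proximal tubule-like cells made up 79.8 to 85.0% of the cold and 79.9 to 83.7% of the warm compartment. Without them, a choice made after the data were seen, the Nfkbiz difference was 2.34 ± 0.33, adjusted p = 0.000536 and that of Nfkbia 0.96 ± 0.25, adjusted p = 0.0594.

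In endothelial cells (515 warm and 842 cold) 1.52% of genes tested were called, and Nfkbiz was called among the 4 members tested. It rose from 4.97, 8.91 and 2.58 scaled CPM in cold libraries, resting on 6 UMIs in all, to 38.4, 51.1 and 52.6 in warm ones (log2 fold change 2.99 ± 0.48, adjusted p = 0.0028), and the call was lost without warm library 2 (2.90, adjusted p = 0.0511) or with DESeq2 (adjusted p = 0.0711). Nfkbiz passed the filter on low counts through its warm counts, so the call is not used as evidence beyond these values. Nfkbia, the member with the highest endothelial level, had overlapping values of 417, 278 and 271 warm and 308, 367 and 335 cold (log2 fold change -0.10 ± 0.19, adjusted p = 0.905). Nfkb1 (-0.04 ± 0.46) and Relb (0.93 ± 0.38) were not called. A cluster led by the stress genes Hspb1, Kdm6b and Ier3 was 13.8% of warm and 10.8% of cold endothelial-like cells. Tnfaip3 was not tested in tubule or endothelial cells, where its means were 1.69 ± 0.649 warm against 1.08 ± 0.439 cold, and 6.83 ± 1.79 against 7.32 ± 2.72 scaled CPM (SD, n = 3). Nfkbid and Rel were likewise too low there to be tested.

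**Figure D2:**
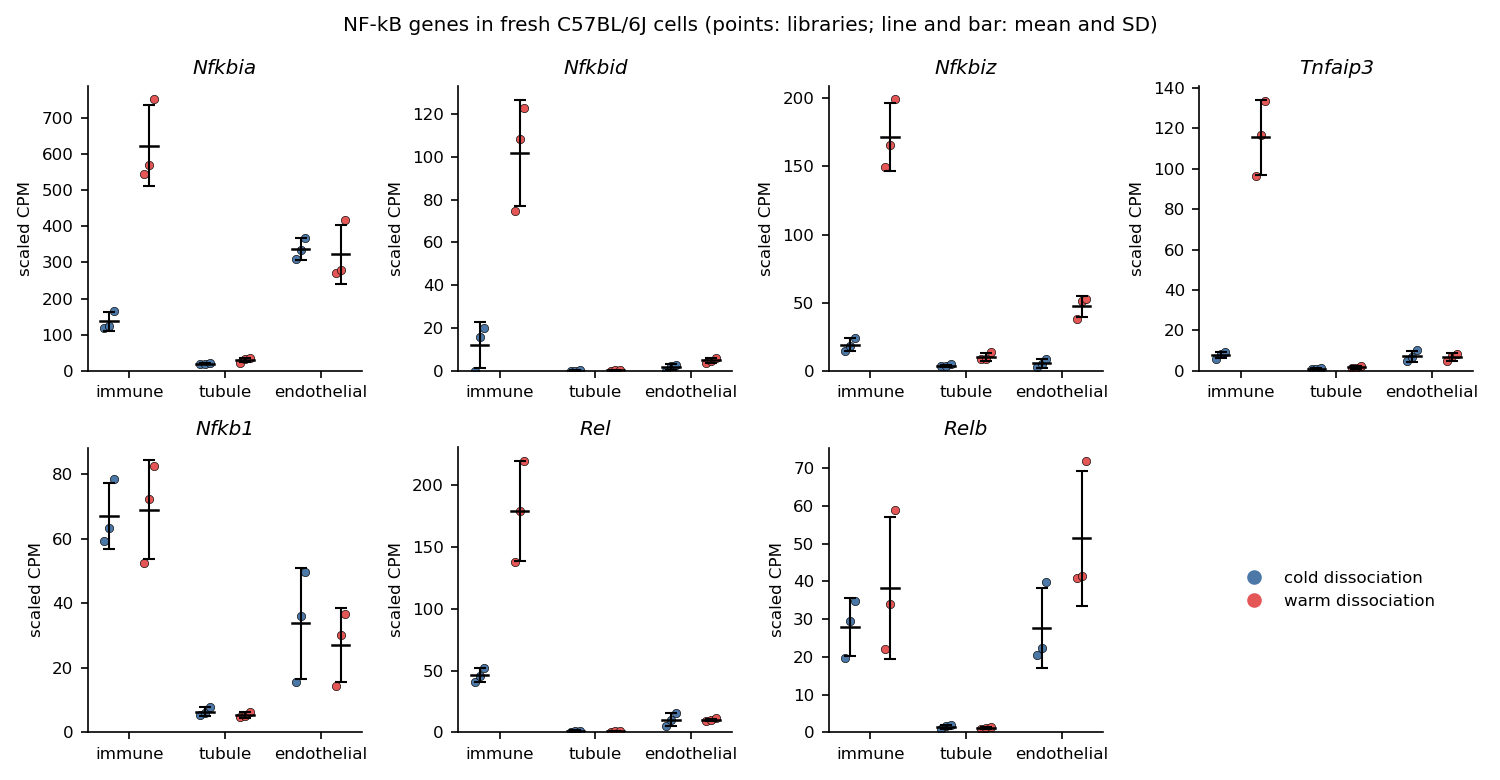
Levels of the 7 genes in fresh C57BL/6J immune, tubule and endothelial cells as scaled CPM on linear axes from 0, with a point per library (blue cold, red warm) and the mean and SD of each group of 3. The warm immune points of Nfkbia, Nfkbid, Nfkbiz, Tnfaip3 and Rel stand clear of the cold ones, while those of Nfkb1 and Relb overlap, and endothelial Nfkbia overlaps between the groups.

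Whether the response itself differed between compartments was tested as an interaction. For the difference between the immune and tubule responses 1.09% of genes were called. The immune response exceeded the tubule response by 1.74 ± 0.38 for Nfkbiz (adjusted p = 0.0125) and by 1.60 ± 0.23 for Nfkbia (adjusted p = 8.04e-05) on the log2 scale. For Nfkb1 the difference of 0.14 ± 0.36 did not pass. For the immune against the endothelial response 0.457% of genes were called, and Nfkbia was among them (2.30 ± 0.24, adjusted p = 3.94e-07). The immune and endothelial responses of Nfkbiz were not shown to differ (0.13 ± 0.81, adjusted p = 1), and those of Nfkb1 (0.00 ± 0.50) and Relb (-0.54 ± 0.51) were not called.

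Tnfaip3, Nfkbid and Rel had been too low to test in tubule or endothelial cells alone, and Relb in tubule cells alone. They entered the joint test through their counts in other cells, so their interactions are given as values only and are not used as evidence of a difference between compartments. Between immune and tubule cells the fitted values were 1.96 ± 0.54 for Rel, 1.89 ± 1.65 for Nfkbid and 0.83 ± 0.55 for Relb. Between immune and endothelial cells they were 1.89 ± 0.68 for Rel and 1.36 ± 1.48 for Nfkbid. The fitted difference of Tnfaip3 was 3.12 ± 0.63 between immune and tubule cells (adjusted p = 0.00536) and 3.94 ± 0.91 between immune and endothelial cells (adjusted p = 0.0421). Tnfaip3 had 4, 9 and 4 UMIs in the cold and 6, 29 and 8 in the warm tubule libraries. In endothelial cells it had 1, 3 and 4 UMIs in the cold and 1, 4 and 2 in the warm libraries.

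The interactions of Nfkbia held without each library in turn. That of Nfkbiz between immune and tubule cells, and the value of Tnfaip3, passed no longer without cold library 2 (1.40, adjusted p = 0.272, and 2.56, adjusted p = 0.264), and Nfkbiz also missed the threshold without warm library 1 (1.55, adjusted p = 0.0582). The immune against endothelial value of Tnfaip3 missed it without cold library 2 or 3 or warm library 1 or 3 (3.77 to 3.90), at the lower clustering resolution (3.66, adjusted p = 0.0912) and with predicted doublets removed (3.74, adjusted p = 0.0744).

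Within single cell types the members were split. Macrophage-like cells, 3.35% of whose tested genes were called, had Nfkbia at 611, 361 and 311 scaled CPM after warm and 47.3, 100.1 and 37.7 after cold dissociation (log2 fold change 2.77 ± 0.37, adjusted p = 0.000333), and Nfkbiz at 337, 177 and 202 against 35.5, 12.0 and 37.7 (log2 fold change 3.01 ± 0.40, adjusted p = 0.000319). Both pairs of groups lay far apart. Rel in these cells was not called (log2 fold change 0.79 ± 0.37, adjusted p = 0.471). In monocyte-like cells (3.11% of genes called), where warm library 1 was dropped for having 6 cells, Nfkbia (2.92 ± 0.38) and Nfkbiz (3.30 ± 0.57) were called and Rel (2.08 ± 0.57) was not. Nfkbiz was not called by DESeq2 (adjusted p = 0.0742). Without warm library 2 its difference was 3.00 and not called (adjusted p = 0.328), but this left 1 warm library, whose spread was taken from the cold ones.

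Rel was called in dendritic-like and B cell-like cells. In dendritic-like cells (8.61% of genes called) Rel stood at 882, 294 and 339 scaled CPM in warm and 17.1, 67.9 and 76.8 in cold libraries (log2 fold change 2.88 ± 0.53, adjusted p = 0.00442), and Nfkbia at 2999.9, 1622 and 963 against 188, 204 and 163 (log2 fold change 3.27 ± 0.39, adjusted p = 0.000172). The warm libraries spread widely but stayed above the cold ones. In B cell-like cells (5.91% of genes called) Rel stood at 569, 415 and 732 against 83.8, 109.7 and 57 (log2 fold change 2.62 ± 0.37, adjusted p = 0.00219), Nfkbid rose by 3.11 ± 0.57, and Nfkbia did not pass (log2 fold change 0.85 ± 0.31, adjusted p = 0.19). The Nfkbid call rested on 5 cold UMIs and was lost without any of the 3 warm libraries or cold library 2 (2.96 to 3.16), or with members listed at 0 set to 9 UMIs (1.67, adjusted p = 0.158) or with DESeq2 (adjusted p = 0.0819), the former a setting added after the data were seen.

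In T cell-like cells (4.02% of genes called) Tnfaip3 and Nfkbia were tested and called. Tnfaip3 stood at 340.5, 379 and 489 scaled CPM in warm T cell-like cells and at 0, 8.17 and 16.3 in cold ones, the latter from 3 UMIs in all (log2 fold change 5.24 ± 0.47, adjusted p = 0.000193). The warm libraries lay far above the cold ones. Tnfaip3 passed the filter on low counts through its warm counts here, so the call is not used as evidence beyond these values. Nfkbia rose less there, from 200.0, 204 and 252 to 533, 585 and 489 scaled CPM (log2 fold change 1.29 ± 0.21, adjusted p = 0.0064), and lost its call without cold library 2 (1.19, adjusted p = 0.0589) and with DESeq2 (adjusted p = 0.0809). For comparison, the plain CPM of Tnfaip3 after warm dissociation was 338 ± 68.4 in T cell-like, 83.1 ± 45.6 in B cell-like, 69.9 ± 23.0 in dendritic-like and 47.8 ± 17.4 in macrophage-like cells (SD, n = 3), in that order. The last 3 lie within each other's spread.

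Among tubule cell types, principal-like cells of the collecting duct (2.46% of genes called) had both members tested called. Nfkbiz stood at 152, 146 and 109.9 scaled CPM in warm and 0, 9.96 and 0 in cold libraries, the cold values from 2 UMIs in all (log2 fold change 4.82 ± 0.63, adjusted p = 4.27e-05). Its warm counts alone carried it past the filter on low counts, so this call is not used as evidence beyond these values. Nfkbia stood at 637, 536 and 109.9 against 86.1, 84.6 and 87.6 (log2 fold change 2.32 ± 0.40, adjusted p = 0.00111), with the lowest warm library near the cold ones. In the far more numerous proximal tubule-like cells 7.15% of genes and none of 3 members were called by edgeR or DESeq2, although all 3 had an unadjusted p under 0.05 and did not overlap, with Nfkbia at 0.47 ± 0.16 (adjusted p = 0.0858), Nfkbiz at 1.07 ± 0.34 (adjusted p = 0.0689) and Nfkb1 at -0.78 ± 0.30 (adjusted p = 0.112). Nfkbia was the member tested in intercalated-like cells (0.924% of genes called, log2 fold change 0.35 ± 0.36, adjusted p = 0.876) and in mural-like cells, the smooth muscle and pericytes of vessels (2.55%, log2 fold change 0.84 ± 0.56, adjusted p = 0.647), and passed in neither. Thick limb-like, distal convoluted-like and connecting tubule-like cells had no member high enough to test.

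**Figure D3:**
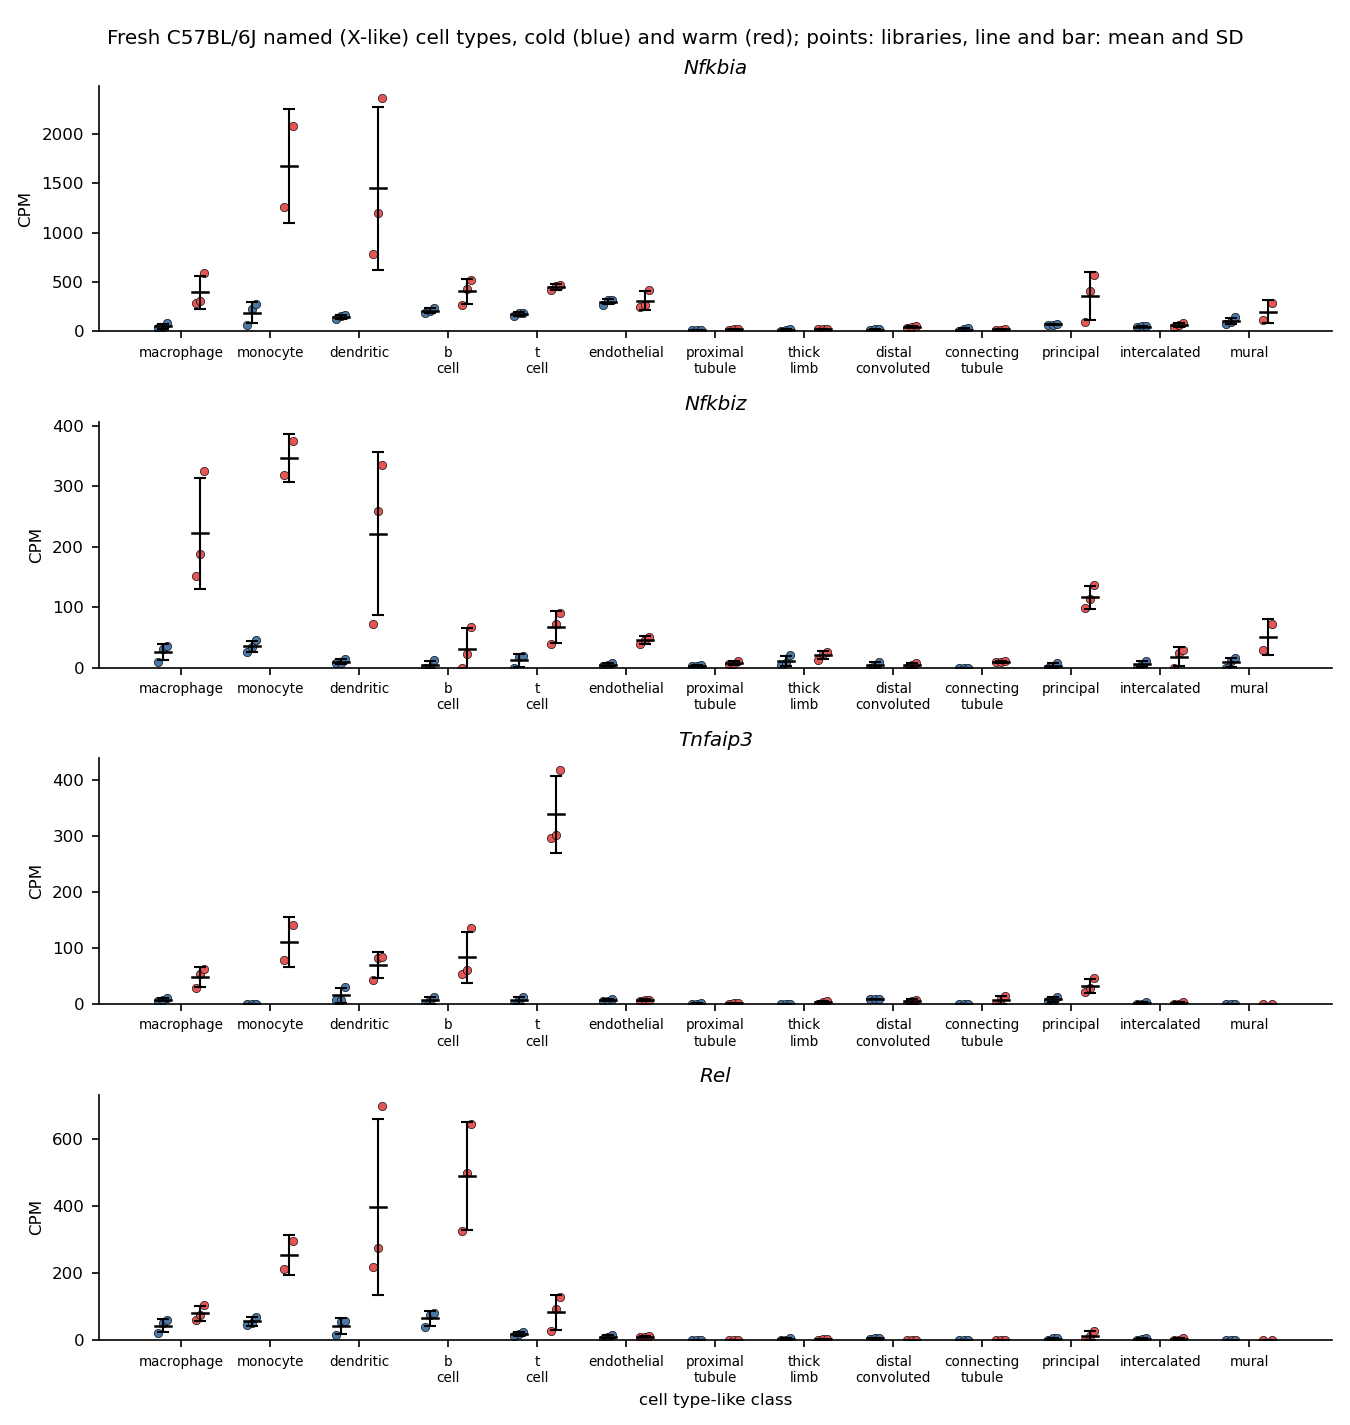
Plain CPM of Nfkbia, Nfkbiz, Tnfaip3 and Rel in the named cell types of fresh C57BL/6J cells, on linear axes from 0, with a point per library of at least 10 cells (blue cold, red warm) and the mean and SD. Warm points of Nfkbia are highest in monocyte-like and dendritic-like cells, those of Tnfaip3 in T cell-like cells and those of Rel in B cell-like and dendritic-like cells, and among tubule types the warm principal-like points stand out for Nfkbia and Nfkbiz.

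Storage was examined next, by comparing cryopreserved or methanol-fixed with fresh suspensions. Each stored library shares its suspension with a fresh one, the same fresh libraries serve both kinds of storage and the comparison of warm with cold, and the values of those comparisons are therefore given side by side and not correlated. Cryopreservation changed which cells were left. Tubule cells fell from 66.6 to 75.6% of barcodes in fresh to 10.1 to 18.2% in cryopreserved cold suspensions, and proximal tubule-like cells were nearly gone, with the proximal tubule markers Slc5a2, Slc5a12 and Slc22a6 at 0 in the cryopreserved tubule cells. The tubule compartments of cold cryopreserved libraries were 19.1 to 35.2% principal-like, 23.3 to 33.3% intercalated-like and 9.89 to 25.5% connecting tubule-like, so fresh and stored tubule cells are different cell types. Each tubule result is therefore also given with proximal tubule-like cells left out, a setting added after the data were seen.

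In cold suspensions, cryopreserved immune cells (1732) had higher levels of the same 5 members that were higher in warm than in cold fresh immune cells, with 12.4% of all genes called. Nfkbia stood at 612, 713 and 600.2 scaled CPM after cryopreservation and 123, 163 and 115 in fresh cells (4.77-fold, log2 fold change 2.25 ± 0.19, adjusted p = 6.94e-07). Nfkbiz stood at 70.1, 117 and 111 against 18.1, 14.4 and 23.6 (log2 fold change 2.41 ± 0.27, adjusted p = 1.78e-05), and Tnfaip3 at 28.3, 36.0 and 36.7 against 8.04, 6.00 and 9.18 (log2 fold change 2.11 ± 0.33, adjusted p = 0.000325). The groups were apart for all of these. Tnfaip3 passed the filter on low counts through its cryopreserved counts, so its call is not used as evidence beyond these values. Rel rose from 40.2, 44.4 and 51.1 to 102, 153 and 97.4 scaled CPM (log2 fold change 1.37 ± 0.22, adjusted p = 0.000466).

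Nfkbid rose from 0, 15.6 and 19.7 to 40.8, 41.7 and 41.2 (log2 fold change 1.64 ± 0.41, adjusted p = 0.0155), a call lost without cryopreserved library 2 (1.65, adjusted p = 0.0573) or fresh library 2 (1.78, adjusted p = 0.0644), or with DESeq2 (adjusted p = 0.0831). Nfkb1 (0.13 ± 0.21) and Relb (0.26 ± 0.27) were not called. Macrophage-like cells were 32.8 to 34.8% of the cryopreserved and 38.3 to 54.02% of the fresh immune cells. In macrophage-like cells alone Nfkbia rose by 3.25 ± 0.30, adjusted p = 3.83e-08 and Nfkbiz by 2.30 ± 0.37, adjusted p = 8.01e-05, while Rel did not pass (0.61 ± 0.33, adjusted p = 0.242). In T cell-like cells alone Nfkbia rose by 1.51 ± 0.24, adjusted p = 0.000272.

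In cold tubule cells (528 cryopreserved), 37.1% of genes and 3 of 4 tested members were called. Nfkbia stood at 71.3, 70.5 and 57.5 scaled CPM after cryopreservation and 20.7, 22.8 and 23.99 fresh (log2 fold change 1.58 ± 0.21, adjusted p = 1.71e-05), Nfkbiz at 16.97, 15.7 and 20.3 against 4.09, 5.36 and 3.86 (log2 fold change 1.92 ± 0.40, adjusted p = 0.00132) and Relb at 6.79, 6.53 and 10.1 against 2.05, 2.18 and 1.07 (log2 fold change 2.04 ± 0.60, adjusted p = 0.014). The groups did not overlap, but Relb rested on 10 UMIs in the stored cells and lost its call without cryopreserved library 2 (2.20, adjusted p = 0.084) or 3 (1.80, adjusted p = 0.0806). Relb passed the filter on low counts through its stored counts, so its call is not used as evidence beyond these values. With proximal tubule-like cells left out, Nfkbia differed by 0.99 ± 0.22, adjusted p = 0.0136, and Nfkbiz by 1.87 ± 0.46, adjusted p = 0.023, and Relb was too low to test. The difference of Nfkbia in the whole compartment was thus over 1.5 times larger on the linear scale. Immune markers in the tubule compartment summed to 242 to 327 CPM after cryopreservation and 87.4 to 118 CPM fresh, and 18 of the 60 were at 0 in every cryopreserved library. Their part in these differences was not tested.

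In cold endothelial cells (899 cryopreserved), 6.91% of genes were called, and of 3 tested members Nfkbia was. It stood at 470.2, 470.3 and 512 scaled CPM after cryopreservation and 302, 358 and 329 fresh (log2 fold change 0.54 ± 0.16, adjusted p = 0.044). The call was lost without any 1 of the 6 libraries (0.49 to 0.60), with DESeq2, with RLE factors and without doublets, and is therefore weak, although the groups did not overlap. Nfkb1 (0.49 ± 0.42) and Relb (0.77 ± 0.40) were not called.

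Cryopreserved warm suspensions were compared with fresh warm ones. In the fresh immune cells the inhibitors and Rel already stood higher in warm than in cold suspensions. In immune cells (1216 cryopreserved), 16% of genes were called and 3 of the 7 members. Rel changed most, from 215, 136 and 175 scaled CPM fresh to 419, 439 and 488 cryopreserved (log2 fold change 1.38 ± 0.18, adjusted p = 0.000583). Nfkbia stood at 1228, 1099 and 1388 against 737, 563 and 532 (log2 fold change 1.02 ± 0.15, adjusted p = 0.00118) and Tnfaip3 at 255, 199 and 259 against 114, 95.2 and 130.4 (log2 fold change 1.08 ± 0.18, adjusted p = 0.0025). All 3 were apart between the groups. Nfkbiz (log2 fold change 0.51 ± 0.16, adjusted p = 0.0519) and Nfkbid (log2 fold change 0.56 ± 0.21, adjusted p = 0.0919) did not pass, nor did Nfkb1 (0.43 ± 0.23) and Relb (0.21 ± 0.36). Nfkbiz passed without warm fresh library 1, with RLE factors (adjusted p = 0.0466) and at the lower resolution (adjusted p = 0.0457). In macrophage-like cells alone Rel rose by 2.07 ± 0.24, adjusted p = 4.88e-05, Tnfaip3 by 1.56 ± 0.31, adjusted p = 0.00309 and Nfkb1 by 1.32 ± 0.32, adjusted p = 0.00976.

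In warm tubule cells (1301 cryopreserved) 54.3% of genes were called, and 5 of 6 tested members. Over whole compartments these 5 members had their largest storage differences here, and the values with proximal tubule-like cells left out, given below, were smaller. Tnfaip3 went from 1.42, 2.83 and 1.68 scaled CPM fresh to 32.6, 37.0 and 33.5 cryopreserved (log2 fold change 3.96 ± 0.31, adjusted p = 1.51e-06), Nfkbia from 36.9, 40.1 and 27.1 to 477, 231 and 305 (log2 fold change 3.28 ± 0.25, adjusted p = 1.37e-06) and Nfkbiz from 10.4, 16.0 and 9.86 to 115, 81.3 and 102 (log2 fold change 2.98 ± 0.22, adjusted p = 9.05e-07). No fresh library reached a cryopreserved one. Relb (log2 fold change 3.46 ± 0.49, adjusted p = 0.000142) and Rel (log2 fold change 3.10 ± 0.47, adjusted p = 0.000247) rose on few UMIs, 35 and 26 in the stored cells. Tnfaip3, Relb and Rel passed the filter on low counts through their cryopreserved counts. Their calls in the whole compartment are therefore not used as evidence beyond these values. Nfkb1 ranged over 2.42 to 20.9 scaled CPM after cryopreservation and was not called (log2 fold change 0.90 ± 0.49, adjusted p = 0.145), but was called without cryopreserved library 1 (1.34, adjusted p = 0.0126).

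The stored warm tubule compartment was 21.7 to 42.8% thick limb-like, 16.8 to 43.6% principal-like and 17.2 to 22.3% intercalated-like, against 79.9 to 83.7% proximal tubule-like fresh cells. With proximal tubule-like cells left out the differences were smaller but held, with 2.42 ± 0.28, adjusted p = 5.34e-05 for Nfkbia, 2.13 ± 0.20, adjusted p = 1.11e-05 for Nfkbiz and 2.31 ± 0.30, adjusted p = 0.000143 for Tnfaip3, and Rel and Relb were not tested. Within single types, Nfkbia rose by 1.14 ± 0.34 in principal-like, 2.20 ± 0.28 in intercalated-like and 1.73 ± 0.36 in thick limb-like cells, all called. Immune markers summed to 176 to 221 CPM in the cryopreserved and 84.2 to 98.0 CPM in the fresh tubule cells. Their part was not tested.

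In warm endothelial cells (786 cryopreserved) 8.99% of genes and 3 of 5 tested members were called. Rel stood at 64.8, 49.0 and 30.3 scaled CPM against 9.19, 9.81 and 10.8 fresh (log2 fold change 2.19 ± 0.45, adjusted p = 0.00657), Nfkbiz at 129.6, 188 and 136 against 36.7, 49.0 and 50.5 (log2 fold change 1.72 ± 0.24, adjusted p = 0.000313) and Nfkbia at 755, 898 and 608 against 399.6, 267 and 259.5 (log2 fold change 1.31 ± 0.19, adjusted p = 0.000503). The groups were apart for all 3 genes. Rel had 2, 5 and 3 UMIs in the fresh libraries and passed the filter on low counts through its cryopreserved counts. Its call is therefore not used as evidence beyond these values. Nfkb1 (0.68 ± 0.36) and Relb (0.28 ± 0.32) were not called. The stress-gene-led cluster held 25.6% of cryopreserved and 13.8% of fresh warm endothelial-like cells.

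Among cryopreserved cells, warm suspensions were compared with cold ones in the same way. Of the members tested, 5 of 7 in immune cells (8.71% of genes called), 3 of 3 in tubule cells (3.22%) and 3 of 5 in endothelial cells (6.99%) were higher in warm cryopreserved libraries. In immune cells Tnfaip3 was at 248, 198 and 257 scaled CPM in warm and 27.0, 34.4 and 34.6 in cold cryopreserved libraries (log2 fold change 2.86 ± 0.18, adjusted p = 1.23e-07), and Rel at 409, 435 and 484 against 97.2, 147 and 91.9 (log2 fold change 1.98 ± 0.18, adjusted p = 4.03e-06). Nfkbid (1.83 ± 0.17), Nfkbiz (1.32 ± 0.18) and Nfkbia (1.00 ± 0.14) were also called, without overlap. Nfkb1 (0.33 ± 0.20) and Relb (0.39 ± 0.25) were not, as in the fresh cells.

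In tubule cells Nfkbiz (log2 fold change 2.56 ± 0.27, adjusted p = 3.18e-05), Tnfaip3 (log2 fold change 2.38 ± 0.46, adjusted p = 0.00664) and Nfkbia (log2 fold change 2.36 ± 0.27, adjusted p = 6.01e-05) were higher in warm cryopreserved libraries. With the few proximal tubule-like cells left out they were 2.57 ± 0.27, 2.39 ± 0.46 and 2.38 ± 0.27. The 2 compartments still differed in make-up, and within thick limb-like cells the Nfkbia difference of 0.65 ± 0.76 was not called. In endothelial cells Nfkbiz (log2 fold change 2.28 ± 0.29, adjusted p = 6.39e-06), Rel (log2 fold change 1.84 ± 0.45, adjusted p = 0.0106) and Nfkbia (log2 fold change 0.68 ± 0.15, adjusted p = 0.00551) were called. Not all of these differences were seen in fresh cells. There endothelial Nfkbia overlapped between warm and cold, tubule Nfkbia was not called, and tubule Tnfaip3 and endothelial Rel were too low to test. Endothelial Nfkbia lost its call without warm cryopreserved library 2 (0.52, adjusted p = 0.0918), and Rel without that library (1.79, adjusted p = 0.0728) or cold cryopreserved library 1 (1.42, adjusted p = 0.0644). Tubule Tnfaip3, with 0, 7 and 2 cold UMIs, and endothelial Rel, with 1, 10 and 6, passed the filter on low counts through their warm counts. Their calls are not used as evidence beyond these values.

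**Figure D4:**
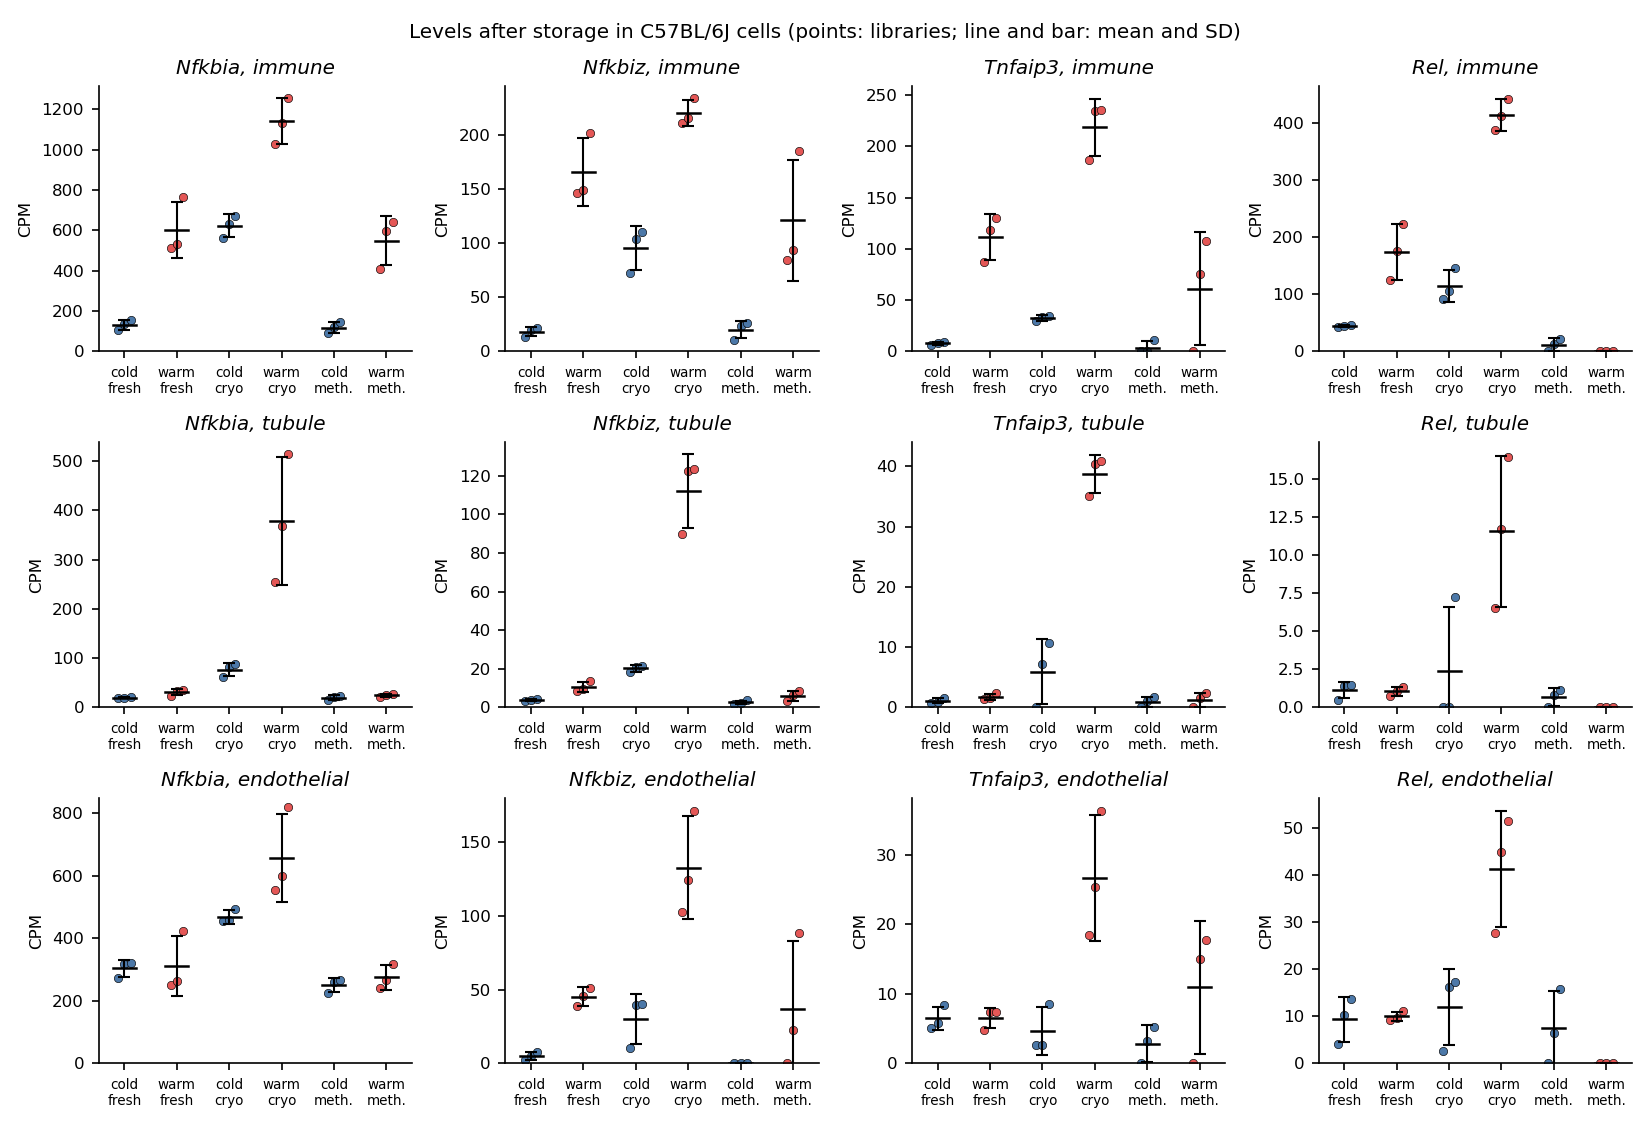
Plain CPM of Nfkbia, Nfkbiz, Tnfaip3 and Rel (columns) in immune, tubule and endothelial cells (lines of panels) of fresh, cryopreserved (cryo) and methanol-fixed (meth.) C57BL/6J suspensions, on linear axes from 0, with a point per library (blue cold, red warm) and the mean and SD of 3. Cryopreserved points lie above the fresh points of the same dissociation in immune cells, methanol-fixed points lie near the fresh ones for Nfkbia, and Rel lies at 0 in every warm methanol library.

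Few members were called between methanol-fixed and fresh cells. In cold suspensions 23.9% of genes were called in immune, 26.4% in tubule and 27.3% in endothelial cells, and of 8 tests on members Rel in immune cells was the one called. It stood at 0, 23.0 and 14.4 scaled CPM after methanol and 44.0, 48.2 and 56.0 fresh (log2 fold change -1.71 ± 0.45, adjusted p = 0.0214). The groups were apart, but Rel was listed at 0 in methanol library 1. The call was lost without methanol library 3 (-1.68, adjusted p = 0.0775) or fresh library 2 (-1.80, adjusted p = 0.0594), and with DESeq2 (adjusted p = 0.0535). It was also lost when each member listed at 0 was set to 9 UMIs, 1 UMI in each of 9 barcodes (-1.02, adjusted p = 0.0638), a setting added after the data were seen.

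Nfkbia in cold methanol-fixed cells differed from fresh by a log2 fold change of -0.33 ± 0.21 in immune, -0.15 ± 0.18 in tubule and -0.33 ± 0.18 in endothelial cells, none of them called. In tubule and endothelial cells edgeR and DESeq2 called 0 of the members tested, and 0 had an unadjusted p under 0.05. Nfkb1 in immune cells stood at 56.3, 48.2 and 33.7 against 63.9, 83.5 and 67.5 scaled CPM, apart but not called (log2 fold change -0.70 ± 0.26, adjusted p = 0.0776). With each methanol library paired to the fresh library of its suspension in a replicate block, it was called as lower (-0.72 ± 0.25, adjusted p = 0.0493). Tubule markers summed to 7743 to 9315 CPM in the methanol-fixed and 2869 to 4995 CPM in the fresh immune cells. The part of that difference was not tested.

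In warm suspensions 9.98% of genes in immune, 15% in tubule and 11.6% in endothelial cells were called, and again Rel in immune cells was the one called among 10 tests on members. It was listed at 0 in all 3 warm methanol libraries, against 248, 154 and 199 scaled CPM in fresh cells, so no fold change is given (adjusted p = 0.000656). Rel passed the filter on low counts through its fresh counts alone, so its call is not used as evidence beyond these values. Set to 9 UMIs in each of those libraries it stayed lower, with a log2 fold change of -1.42 ± 0.41 and an adjusted p of 0.0495. A barcode can hold more than 1 UMI, so this setting does not bound what the gene filter left out. Whether the call depends on that filter is not settled by it. The warm methanol libraries were small samples, with 48 to 213 immune cells in a library. The other immune members were lower in mean and not called, with log2 fold changes from -0.96 ± 0.44 for Nfkbid to -0.34 ± 0.22 for Nfkbia, and Tnfaip3, Nfkbid and Nfkb1 were listed at 0 in warm methanol library 3. In tubule cells Nfkbia (-0.39 ± 0.19), Nfkbiz (-0.87 ± 0.37) and Nfkb1 (-0.69 ± 0.66) were not called by edgeR or DESeq2, 1 of them (Nfkbiz) having an unadjusted p under 0.05, and with the libraries paired in a replicate block Nfkbia was called as lower (-0.45 ± 0.13, adjusted p = 0.0345), as it was at the lower clustering resolution (-0.72, adjusted p = 0.0161).

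In immune cells the difference between warm and cold suspensions could still be read after methanol. Of all genes 3.28% were called in immune cells, 1.87% in tubule cells and 1.9% in endothelial cells. Both immune members tested were called. Nfkbia stood at 684, 472 and 731 scaled CPM in warm and 149, 137 and 103 in cold methanol-fixed immune cells (log2 fold change 2.25 ± 0.24, adjusted p = 8.44e-05), and Nfkbiz at 107, 97.5 and 212 against 23.9, 12.4 and 30.1 (log2 fold change 2.42 ± 0.46, adjusted p = 0.00774). Both were apart, and the Nfkbiz call was lost without warm library 1 (2.51, adjusted p = 0.0524) or cold library 2 (2.09, adjusted p = 0.063). Nfkbiz had 4, 5 and 12 UMIs in the cold libraries and passed the filter on low counts through its warm counts. Its call is therefore not used as evidence beyond these values. The members tested in tubule cells (Nfkbia 0.38 ± 0.21, Nfkbiz 1.21 ± 0.84, Nfkb1 -0.61 ± 0.82) and endothelial cells (Nfkbia -0.02 ± 0.25) were not called by edgeR or DESeq2, and 0 of these had an unadjusted p under 0.05.

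Cryopreservation was repeated in Balb/c female mice with cold dissociation, a storage of 2 weeks and the later 10x chemistry. No member was called in immune cells. This experiment and that in C57BL/6J mice differed in strain, sex, age, 10x chemistry, time in storage and, by the methods, the spin at thawing, and the difference between them was not tested. In immune cells 3.1% of genes and none of 5 tested members were called by edgeR. None had an unadjusted p under 0.05, and DESeq2 called 0 as well. Nfkbia stood at 143, 126 and 135 scaled CPM cryopreserved and 103, 105 and 116 fresh, apart by a small step (log2 fold change 0.32 ± 0.15, adjusted p = 0.395). Rel (log2 fold change -0.35 ± 0.21, adjusted p = 0.545) and Relb (log2 fold change -0.35 ± 0.25, adjusted p = 0.618) were lower in mean. In endothelial cells 2.62% of genes and none of 3 members were called by edgeR or DESeq2, 0 of them at an unadjusted p under 0.05, with Nfkbia at 0.04 ± 0.14, Nfkb1 at 0.17 ± 0.16 and Relb at -0.47 ± 0.24.

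In Balb/c female tubule cells 51.8% of genes were called and 4 of 6 tested members. Nfkb1 stood at 16.9, 22.3 and 21.7 scaled CPM cryopreserved and 13.5, 10.98 and 11.4 fresh (log2 fold change 0.76 ± 0.15, adjusted p = 0.00157), and Relb at 4.02, 6.13 and 13.3 against 2.47, 3.58 and 3.36 (log2 fold change 1.24 ± 0.36, adjusted p = 0.0149). Nfkbiz (log2 fold change 0.83 ± 0.23, adjusted p = 0.0106) and Nfkbia (log2 fold change 0.56 ± 0.15, adjusted p = 0.0082) rose as well, while Rel (0.38 ± 0.36) and Tnfaip3 (0.26 ± 0.48) did not pass. Cryopreserved library 3 decided the Relb call (0.68, adjusted p = 0.114 without it) and the Nfkbiz call (0.72, adjusted p = 0.0537). Here too the cells differed, with 12.7 to 19.7% proximal tubule-like cells cryopreserved and 61.4 to 70.9% fresh. With these left out none of the members was called, and the differences were 0.27 ± 0.14 for Nfkbia, 0.72 ± 0.28 for Nfkbiz, 0.39 ± 0.14 for Nfkb1 and 0.64 ± 0.36 for Relb. Within single types Nfkbia turned to -0.10 in intercalated-like and -0.39 in thick limb-like cells, and neither was called.

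Nuclei were compared with cold fresh cells of the same strain and sex. Counts of nuclei hold intronic reads and those of cells do not, so a difference joins the place of the RNA with the way it was counted, and the 2 cannot be told apart. Most genes differed, with 80.7% of genes called in tubule and 73.9% in endothelial cells of male mice, so the counts of members say little by themselves. The median log2 fold change over all genes was 0.71 in male tubule and 0.86 in male endothelial cells, and 0.14 and 0.17 in the female ones.

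In male mice Nfkb1 was higher in nuclei in both compartments, in tubule at 58.3, 70.3 and 67.5 scaled CPM against 20.9, 9.96 and 15.7 in cells (log2 fold change 2.14 ± 0.22, adjusted p = 8.05e-06) and in endothelium at 124, 141 and 159 against 57.7, 50.0 and 76.6 (log2 fold change 1.25 ± 0.43, adjusted p = 0.00979). The endothelial call was lost without cell library 1 (1.23, adjusted p = 0.0555) or 2 (1.13, adjusted p = 0.057). Nfkbiz (1.55 ± 0.22), Relb (1.15 ± 0.31) and Rel (2.28 ± 0.69) were also higher in tubule nuclei. Rel rested on 3 UMIs in the cells, was listed at 0 in cell library 3, and lost its call without cell library 1 (1.73, adjusted p = 0.059), with DESeq2 (adjusted p = 0.0658) or when set to 9 UMIs (0.30, adjusted p = 0.699). It passed the filter on low counts through its nuclei counts, so the call is not used as evidence beyond these values.

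Nfkbia went the other way. In male endothelium it stood at 126, 103 and 103 scaled CPM in nuclei and 365, 463 and 153 in cells (3.11-fold lower, log2 fold change -1.64 ± 0.32, adjusted p = 4.1e-05). In male tubule the groups overlapped (log2 fold change -0.12 ± 0.17, adjusted p = 0.521), and with proximal tubule-like cells left out Nfkbia was called as lower in nuclei (-0.94 ± 0.17, adjusted p = 0.0002). Proximal tubule-like cells were 51.7 to 57.4% of tubule nuclei and 59.6 to 64.9% of tubule cells. Relb in endothelium was not called (-0.39 ± 0.44).

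In female mice 77.5% of genes in immune, 86% in tubule and 78.2% in endothelial cells were called, and Nfkbia was lower in nuclei in all 3 compartments. It stood at 23.3, 28.2 and 33.9 scaled CPM in immune nuclei against 206, 214 and 242 in immune cells (7.76-fold lower, log2 fold change -2.96 ± 0.29, adjusted p = 2.1e-08). In tubule it stood at 11.4, 9.15 and 10.1 against 42.6, 43.8 and 38.7 (4.09-fold lower, log2 fold change -2.03 ± 0.10, adjusted p = 4.39e-08), and in endothelium at 57.5, 45.0 and 45.1 against 366, 352 and 318 (7.04-fold lower, log2 fold change -2.82 ± 0.14, adjusted p = 2.4e-09). Nuclei and cells were well apart each time.

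Nfkbiz and Nfkb1 were higher in female nuclei of tubule (2.00 ± 0.12 and 1.99 ± 0.09) and endothelium (1.90 ± 0.29 and 1.15 ± 0.14), and in immune cells neither was called (0.17 ± 0.28 and 0.07 ± 0.21). Rel was lower in immune nuclei (log2 fold change -1.39 ± 0.32, adjusted p = 0.000659) and slightly higher in tubule nuclei (log2 fold change 0.59 ± 0.22, adjusted p = 0.0305), where its call was lost without nuclei library 2 or 3 or cell library 3 (0.38 to 0.60) and with DESeq2 (adjusted p = 0.0565). Relb was higher in tubule nuclei (log2 fold change 0.60 ± 0.16, adjusted p = 0.00648) and was not called in endothelium (0.08 ± 0.22) or immune cells (-0.48 ± 0.37), where it was called as lower without nuclei library 2 (-1.08, adjusted p = 0.0323). Tnfaip3 was not called in tubule (-0.29 ± 0.28) or endothelium (-0.81 ± 0.51), where it was called without cell library 2 (-1.24, adjusted p = 0.0421). Nfkbid in tubule (1.43 ± 0.75) was called without cell library 2 (3.31, adjusted p = 0.0216), and Rel in endothelium (0.41 ± 0.32) was not called. With predicted doublets removed Rel (0.82, adjusted p = 0.0291) and Relb (0.49, adjusted p = 0.0432) were called as higher in endothelial nuclei.

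The immune compartment of nuclei was small, with 163 macrophage-like nuclei in 3 libraries. Its tubule markers summed to 15799 to 21986 CPM and its immune markers to 2125 to 3375 CPM, against 2825 to 4739 and 11814 to 13584 CPM in immune cells. The part of this in the immune differences was not tested. With macrophage-like cells compared alone, Nfkbia (-2.71 ± 0.32) and Rel (-1.62 ± 0.36) stayed lower in nuclei.

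The other nuclei protocols, sorted after 1 wash at a higher spin or spun through sucrose, were described without a test. Plain CPM of Nfkbia in endothelial nuclei was 51.7 ± 6.48 after 3 washes, 73.2 ± 23.1 after 1 wash and 94.3 ± 12.98 after sucrose (SD, n = 3), and in tubule nuclei 12.4 ± 0.981, 13.9 ± 2.52 and 18.4 ± 2.46. Nfkb1 in tubule nuclei was 98.8 ± 1.56, 77.7 ± 4.46 and 80.8 ± 1.83 CPM. Cold fresh cells of these mice had 234 ± 12.6 CPM of Nfkbia in endothelial and 21.7 ± 0.741 in tubule cells, and 10.6 ± 1.32 CPM of Nfkb1 in tubule cells.

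**Figure D5:**
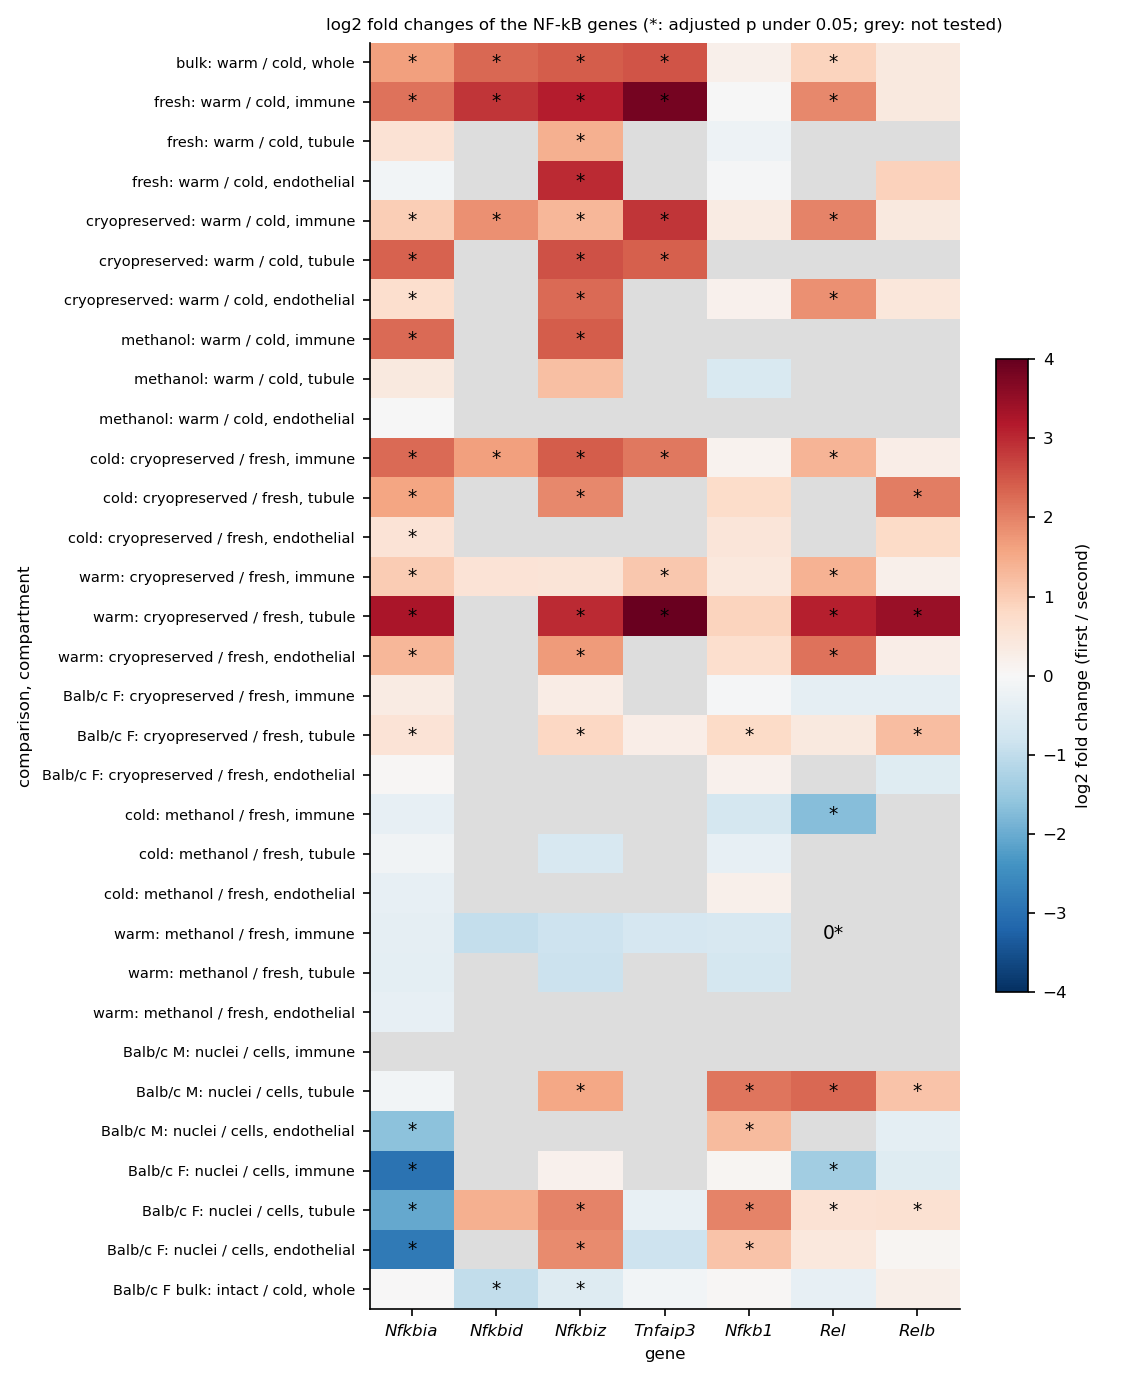
Fitted log2 fold changes (colour, blue lower and red higher in the first group than in the second) of the 7 genes (columns) in every comparison and compartment (lines), with a star where the adjusted p was under 0.05 and grey where the gene was not tested; 0 with a star marks Rel in warm methanol immune cells, listed at 0 in every methanol library. Warm over cold and cryopreserved over fresh immune cells of C57BL/6J mice are red for Nfkbia, Nfkbid, Nfkbiz, Tnfaip3 and Rel, and nuclei over cells are blue for Nfkbia and red for Nfkb1 in tubule and endothelium.

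The wider pathway was counted in the same tests. In fresh immune cells 47 of the 82 further genes were tested, 8 were higher and 1 lower after warm dissociation. Among the calls Il1b rose by 3.83 ± 0.24, the chemokine gene Ccl4 by 3.87 ± 0.33 and Tnip3, which encodes a partner of A20, by 3.02 ± 0.47 on the log2 scale, and Ltb was lower (-0.87 ± 0.20). Tnf, at 43.9 to 56.9 scaled CPM in warm libraries, and Cxcl2, at 256 to 361, were called as higher and listed at 0 in every cold library, so no fold change is given. Both passed the filter on low counts through their warm counts alone. Their calls, counted in the 8, are therefore not used as evidence beyond these values. In tubule cells 51 were tested, with 3 higher and 1 lower, and in endothelial cells 22, with 3 higher and 0 lower. Of all genes 3.24%, 6.45% and 1.52% were called in these compartments, in that order.

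After cryopreservation of cold suspensions 10 of 55 tested pathway genes were higher and 2 lower in immune, 9 of 43 and 3 in tubule, and 1 of 26 and 0 in endothelial cells, where 12.4%, 37.1% and 6.91% of all genes were called in either direction. For warm suspensions these counts were 7 of 43 and 0 in immune, 24 of 53 and 6 in tubule, and 5 of 27 and 0 in endothelial cells, beside 16%, 54.3% and 8.99% of all genes. After methanol they were 1 of 29 and 2, 2 of 48 and 5, and 1 of 19 and 2 in the cold, and 0 of 27 and 1, 5 of 47 and 3, and 0 of 9 and 2 in the warm suspensions. The shares of all genes called after methanol were 23.9%, 26.4% and 27.3% in the cold and 9.98%, 15% and 11.6% in the warm suspensions. Between warm and cold cryopreserved cells 16 of 55 were higher and 2 lower in immune, 4 of 24 and 0 in tubule and 6 of 29 and 0 in endothelial cells, and between the methanol-fixed cells 6 of 13, 2 of 43 and 1 of 4 were higher and none lower. Of all genes 8.71%, 3.22% and 6.99% were called between the cryopreserved and 3.28%, 1.87% and 1.9% between the methanol-fixed cells. The counts of the pathway are to be read against these shares, and nothing particular to the pathway is drawn from them.

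In Balb/c female cells 1 of 53 tested pathway genes was called in immune cells after cryopreservation, as lower, and 18 of 54 were higher and 3 lower in tubule cells. In endothelial cells edgeR called 0 of 43, with 3 at an unadjusted p under 0.05. Of all genes 3.1%, 51.8% and 2.62% were called in immune, tubule and endothelial cells. Nuclei against cells had 28 of 53 higher and 9 lower in male tubule, 15 of 29 and 4 in male endothelium, 11 of 48 and 19 in female immune, 33 of 61 and 19 in female tubule and 23 of 56 and 18 in female endothelial cells. With 80.7% and 73.9% of all genes called in the male and 77.5%, 86% and 78.2% in the female compartments, these counts say little about the pathway.

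The genes whose pattern was most like that of each member were found over the 54 sums of 18 C57BL/6J libraries and 3 compartments, by the Pearson correlation of log2(CPM + 1) among 7720 genes. The sums share libraries, depth and cell make-up, so the values are descriptive. Nfkbia was closest to Cdkn1a (r = 0.937), Pnrc1 (0.930) and Ier5 (0.929), Nfkbid to Dusp5 (0.856), Tnfaip3 (0.848) and Ccr7 (0.838), Nfkbiz to Ccnl1 (0.854), Clk1 (0.835) and Btg2 (0.833), and Tnfaip3 to Per1 (0.868), Dusp5 (0.859) and Cxcl2 (0.851). Nfkb1 was closest to Lyn (0.939), Ankrd44 (0.912) and Myd88 (0.910), Rel to Pip4k2a (0.922), Casp4 (0.904) and AI607873 (0.886), and Relb to Eif4e3 (0.906), Peak1 (0.891) and Marcks (0.860). Among the members themselves the correlations ran from 0.44 (Nfkbiz with Nfkb1) to 0.848 (Nfkbid with Tnfaip3).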

How the data were processed

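Gene counts of 15 bulk libraries and UMI counts of 39 10x libraries were used as deposited. According to the methods and the processing notes, the authors made the bulk counts with Trim Galore, STAR 2.6.1a and featureCounts, and the 10x counts with Cell Ranger 2.1.1, kept barcodes by numbers of genes, UMIs and mitochondrial reads, and kept genes found in at least 10 cells. Bulk libraries were rRNA-depleted (C57BL/6J, Balb/c male) or poly(A)-selected (Balb/c female).

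Barcodes were clustered per experiment (scanpy 1.11.5, 2000 variable genes, 30 components, 20 neighbours, Leiden resolution 2) and clusters were named from marker lists, so names were rebuilt and are not those of the study. Barcodes predicted as doublets (8992, 5.11%) were kept and removed in an alternative. Counts were summed per library and class of at least 10 cells and compared in R 4.3.3 by edgeR 4.0.16 (quasi-likelihood, filterByExpr, TMM, Benjamini-Hochberg threshold 0.05). Standard errors are the size of the log2 fold change over the root of its F statistic. The test was also run on simulated counts of genes past the filter, with a common dispersion. That run does not bear on calls that rest on few UMIs. Alternatives were DESeq2 1.42.0, RLE factors, the exact test of edgeR for bulk, no low-count filter, a minimum log2 fold change of 1, resolution 1, doublets removed, each library left out and a replicate block.

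Stored and fresh libraries with 1 code came from 1 mouse. The tests were unpaired, and the replicate block paired these libraries as an alternative. The codes of warm and cold libraries were not taken to mark pairs, since the lowest correlation of same-coded deviations was -0.21. Replicates were separate mice. Members, gene lists and tests were chosen with earlier results of these data known. The text names all 7 members, up to 3 pathway genes per role by their bulk difference, the 3 most alike genes of each member, and markers. 1 further pathway gene picked by this rule is not reported here.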

Additional observations from a re-analysis of the deposited data

Results flagged for a closer look

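The responses of some members to warm dissociation differed between cell compartments in a test of the difference itself. The immune response exceeded the tubule response by 1.60 for Nfkbia and 1.74 for Nfkbiz on the log2 scale, and the endothelial response by 2.30 for Nfkbia. The tubule compartment was 79.8 to 85.0% proximal tubule-like in the cold. In principal-like tubule cells alone the warm against cold difference of Nfkbia was 2.32, beside 2.18 in immune cells. That of Nfkbiz was 4.82, beside 3.15 in immune cells. The 4.82 rested on 2 cold UMIs in a gene that passed the filter through its warm counts, and is not used as evidence. The cell types were not tested against each other. The fitted values of Tnfaip3, 3.12 against tubule and 3.94 against endothelial cells, also passed the threshold but are not used as evidence of such a difference. Tnfaip3 entered that test through its immune counts and was too low to test in the other compartments alone, with 1, 3 and 4 UMIs in the cold and 1, 4 and 2 in the warm endothelial libraries. Its values and the Nfkbiz difference no longer passed without single libraries.

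A member's contrasts were also paired across compartments or experiments. Of 72 such pairs without overlap between the groups in either contrast, 2 had opposite directions. In these the ranges of the groups were apart one way in one compartment and the opposite way in another. The share of such pairs over all genes was not counted. Relb had a log2 fold change of -0.35 in immune and 1.24 in tubule cells after cryopreservation in Balb/c female mice, the first of them not called. The second lost its call without cryopreserved library 3 (0.68, adjusted p = 0.114) and with proximal tubule-like cells left out (0.64 ± 0.36). Rel had a log2 fold change of -1.39 in immune and 0.59 in tubule cells between nuclei and cells of Balb/c female mice, the second of them lost without nuclei library 2 or 3 or cell library 3 (0.38 to 0.60). These 2 differences were not tested.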

How the results depend on the processing

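Of 107 pairs of a member and a compartment or cell type that were called, 653 of 681 values under another tool, scaling, filter, fold minimum, resolution or block, or without doublets, kept the call and its direction and 0 reversed. With 1 library left out 517 of 566 did, and 0 reversed. The 107 pairs, and many of the ranges below, include calls that are given above as values only or not used as evidence. DESeq2 kept 96 of 106, and the minimum log2 fold change of 1 kept 94 of 107.

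Counts of called members moved by more than 1.5 times in these cases, and the cause was not tested unless named. For intact kidney against cold suspension the count of 2 became 0 with a minimum log2 fold change of 1. For methanol against fresh cold cells the count of 1 became 0 with DESeq2, 0 with members listed at 0 set to 9 UMIs, 2 without a low-count filter and 2 with the replicate block. For warm methanol the count of 1 became 2 at resolution 1, 2 with the replicate block, and 2 with 9 UMIs, where the second was endothelial Rel, at 3.53, a value made by the filling itself. Between warm and cold methanol-fixed cells the count of 2 became 5 without the filter. For Balb/c female cryopreserved against fresh cells the count of 4 became 1 with a minimum log2 fold change of 1, and 0 with proximal tubule-like cells left out. In single cell types of that comparison Nfkbia turned to -0.10 in intercalated-like and -0.39 in thick limb-like cells.

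With each library left out in turn, the counts ran from 5 to 5 for bulk warm against cold, 0 to 2 for intact kidney, 6 to 7 for fresh cells, 6 to 10 and 10 to 12 for cryopreserved cold and warm, 0 to 1 and 1 to 1 for methanol cold and warm, 9 to 11 and 1 to 4 for warm against cold after cryopreservation and methanol, 2 to 4 for Balb/c female cryopreservation, 4 to 7 and 9 to 12 for male and female nuclei, 11 to 16 for cell types, 2 to 5 for the response (the values of Tnfaip3 counted in) and 18 to 22 for levels.

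The replicate block, which pairs libraries by suspension code, kept all 53 called pairs it could be run on. Beside the 2 members named with methanol it changed no other call where the codes mark a shared mouse. The labels do not say that a code marks 1 mouse across warm and cold libraries, and there the block left the counts at 7 in fresh, 11 in cryopreserved and 2 in methanol-fixed cells. In fresh cells the correlation of same-coded deviations went down to -0.21, and that of differently coded ones up to 0.42. No paired analysis was possible for the bulk and Balb/c libraries because their columns and barcodes carry no code that both groups share. Alternatives on parts of compartments and on members listed at 0 were chosen after seeing the data. Nfkbid, Tnfaip3 and Rel in fresh C57BL/6J tubule and endothelial cells, and several members in methanol-fixed and Balb/c male cells, were too low to test.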
